A study of Mus musculus with 6 samples.

Results

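The genes described here are the matrix metalloproteinases (Mmp), their tissue inhibitors (Timp), the ADAMTS proteases and the ADAMTS-like proteins, taken from the deposited table wherever a symbol was one of these names followed by a number. The rule found 46 of 19241 listed genes: 19 Mmp, 4 Timp, 18 Adamts and 5 Adamtsl genes. They were measured by bulk RNA sequencing of total interscapular brown adipose tissue from newborns, with 3 libraries labelled WT and 3 labelled KO. The WT mice carried a floxed Fstl1 gene (genotype label Fstl1-floxed). The KO mice are labelled Myf5-Fstl1 KO, that is, Fstl1 was deleted in the Myf5 lineage, the precursors of skeletal muscle and of many brown adipocytes. The labels do not say whether the WT mice carried a Cre, how old in hours the newborns were, or whether each library came from 1 animal, so p-values measure the spread between these libraries. Cells of other lineages, such as blood cells, keep Fstl1, and all values are from the mixed tissue.

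Matrix metalloproteinases are zinc enzymes that are made as inactive precursors and cut collagens, basement membrane proteins and cell surface proteins once their propeptide is removed. TIMPs are small secreted proteins that block the active site, and TIMP3 differs from the others in binding to the matrix and in also blocking several ADAM and ADAMTS enzymes. ADAMTS enzymes are secreted and carry thrombospondin repeats. Some trim procollagens, some cut the proteoglycans versican and aggrecan, and the ADAMTS-like proteins share the repeats without having a protease domain. In fat, these enzymes are known for remodelling the matrix around growing adipocytes and vessels.

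Fstl1, the targeted gene, measured, in replicate order, 55.52, 130.04 and 54.37 FPKM in WT libraries against 7.93, 13.08 and 8.77 in KO libraries, with no overlap (FPKM are fragment numbers scaled to transcript length and library size; limma, log2 fold change −2.79, SE 0.33, adjusted p 0.00979; exact permutation test, two-sided p 0.1, the smallest that 3 against 3 libraries can give). Xist was at 44.82 to 85.51 FPKM in WT and 0.05 to 0.92 in KO, and 4 Y-linked genes were at 7.39 to 99.31 FPKM in KO and at most 0.23 in WT. Sex and genotype therefore cannot be told apart in any comparison below. Timp1 is the only gene of the 46 on a sex chromosome, the X. WT replicate 3 held the most red cell RNA (summed FPKM of 6 markers 11026, against 2350 to 3904 in the other 5 libraries), and KO replicate 1 the least muscle RNA (summed FPKM of 9 markers 371.6, against 1433 to 2109). Estimated depth was 13900000 to 15100000 reads per library.

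In all, 3 of the genes passed the test between KO and WT, and the 250 bases upstream of their annotated starts are shown first because the report turns on these genes, with Mmp13 as a barely detected relative from the same gene cluster as Mmp8. The sequences are RefSeq's on GRCm38.p6, 5′ to 3′ on the gene's strand, with matches to 4 motifs in capitals.
Adamts1, chr16:85803114-85803363, minus strand: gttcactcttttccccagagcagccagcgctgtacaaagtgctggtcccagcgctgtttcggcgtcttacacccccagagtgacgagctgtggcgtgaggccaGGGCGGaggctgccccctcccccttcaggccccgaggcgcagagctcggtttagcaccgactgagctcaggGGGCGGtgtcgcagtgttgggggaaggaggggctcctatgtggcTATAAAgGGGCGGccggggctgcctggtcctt
Mmp15, chr8:95352046-95352295, plus strand: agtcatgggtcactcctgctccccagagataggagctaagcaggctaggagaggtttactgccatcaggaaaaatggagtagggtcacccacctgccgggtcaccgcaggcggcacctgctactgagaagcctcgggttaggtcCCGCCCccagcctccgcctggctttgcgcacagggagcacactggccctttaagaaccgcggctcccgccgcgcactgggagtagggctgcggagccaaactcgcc
Mmp8, chr9:7558179-7558428, plus strand: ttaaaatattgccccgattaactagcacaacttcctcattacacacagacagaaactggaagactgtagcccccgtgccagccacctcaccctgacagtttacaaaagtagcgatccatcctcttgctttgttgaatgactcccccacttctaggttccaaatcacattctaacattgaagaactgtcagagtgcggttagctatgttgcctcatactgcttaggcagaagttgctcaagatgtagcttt
Mmp13, chr9:7272264-7272513, plus strand: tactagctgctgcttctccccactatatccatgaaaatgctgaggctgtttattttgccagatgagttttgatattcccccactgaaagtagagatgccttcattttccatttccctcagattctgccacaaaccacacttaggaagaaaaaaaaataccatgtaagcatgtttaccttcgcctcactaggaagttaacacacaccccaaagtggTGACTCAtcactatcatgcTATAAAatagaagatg

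The motifs searched on both strands were the GC box GGGCGG, the TATA box TATAAA, the AP-1 site TGACTCA and the cyclic AMP response element TGACGTCA; no matches overlapped in these 4 windows. The Adamts1 window held 3 GC boxes and 1 TATA box that began 32 bases before the start, and was 65.6% G and C. The Mmp15 window held 1 GC box and no TATA box, at 63.6% G and C. The Mmp8 window held none of the 4 motifs, at 44.8% G and C, where the median over all windows was 52.4%. The Mmp13 window held 1 AP-1 site and 1 TATA box. Windows were at hand for 32 of the 46 genes (34 windows). A GC box was in 20 of the 34 windows and in 32.7% of all 32851 windows. The AP-1 letters were in 4 of the 34, those of Mmp3, Mmp10, Mmp12 and Mmp13, and in 4.46% of all. The TATA letters were in 6 and in 12.4% of all, and the cyclic AMP element was in 0 and in 1.55% of all. A match describes the letters only.

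Levels in the depot differed over a wide range, and few genes made up most of the signal. Averaged over the 6 libraries, 7 genes reached 20 FPKM, and these held 77.8% of the summed FPKM of the 46. These were Timp3 (109.2 FPKM), Timp4 (56.1), Mmp14 (26.8), Mmp2 (26.3), Adamts9 (23.5), Timp2 (23.0) and Adamts1 (20.5). Timp3 lay above Timp4 in each of the 6 libraries, whereas the libraries of Mmp14, Mmp2, Adamts9 and Timp2 overlapped, so that their order is not resolved. A further 9 genes had means of 4.16 to 8.64 FPKM, with Adamts13, Mmp28, Adamts12, Mmp19, Mmp15, Adamts5, Mmp8, Adamts2 and Mmp23 in falling order and overlapping neighbours. The remaining 12 tested genes had means of 0.52 to 2.85 FPKM. The other 18 genes had means of 0.00333 to 0.47 FPKM, below the minimum of 0.5 FPKM for testing, and no library exceeded 0.75 FPKM in any of them. By the estimated depth, that is at most 77 reads in a library.

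**Figure D1:**
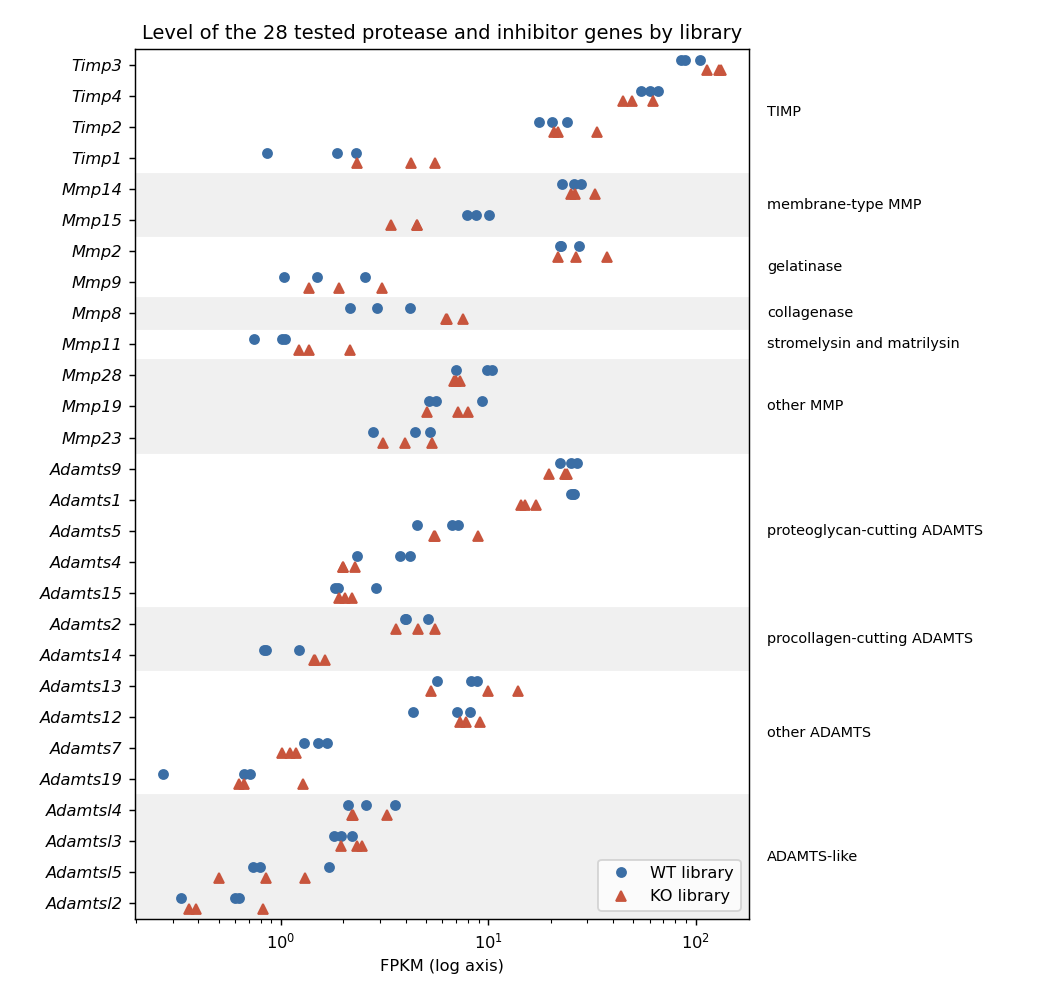
FPKM on a log axis (horizontal) for the 28 tested genes, grouped by role, with circles for the 3 WT and triangles for the 3 KO libraries. Timp3 and Timp4 lie highest, and the WT and KO libraries of Mmp15, Adamts1 and Mmp8 are apart.

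Of the 28 tested genes, 3 were past the limma threshold of 0.05 (adjusted p): Mmp15 and Adamts1 fell and Mmp8 rose. Over all 13331 tested genes 2.21% were called (1.21% higher and 1.01% lower in KO), and 3 genes are too few to say more of the families. The libraries of WT and KO did not overlap in 9 of the 28, 5 higher and 4 lower in KO; this held for 24.9% of all tested genes (13.6% higher, 11.4% lower). The median log2 difference was 0.07 over the 28 genes and 0.01 over all tested genes. The differences of the 28 ranged from −0.94 to 0.94. In whole tissue, a change in the number of cells of a type and a change in RNA per cell cannot be told apart.

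**Figure D2:**
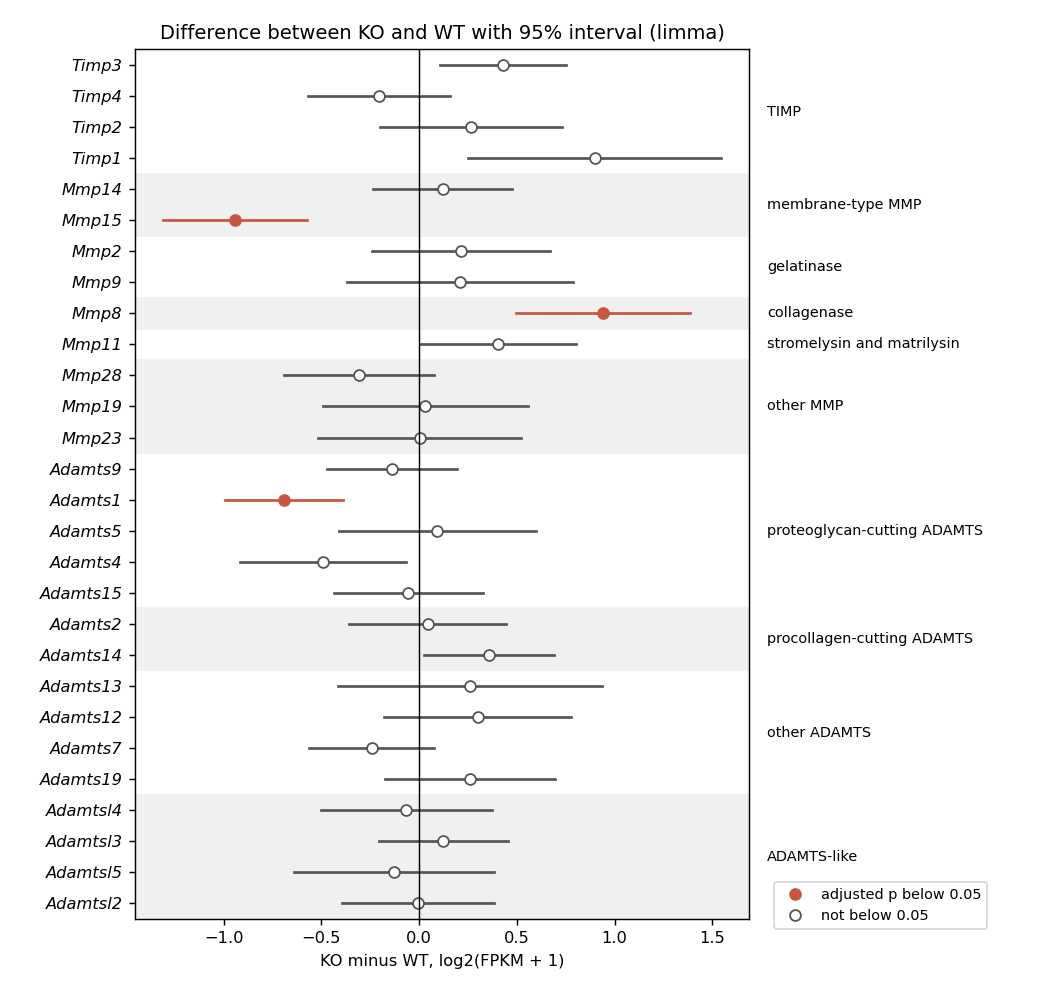
Difference between KO and WT on the log2(FPKM + 1) scale (horizontal) with its 95% interval from limma, for the 28 tested genes by role. Filled points mark the 3 genes past the threshold, Mmp15 at −0.94, Adamts1 at −0.69 and Mmp8 at 0.94, and open points the other 25.

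Among the inhibitors, none of the 4 Timp genes passed. Timp3 measured 104.96, 88.78 and 85.26 FPKM in WT libraries against 132.55, 129.64 and 113.99 in KO libraries. Each KO library lay above each WT library, with averages of 125.4 ± 9.98 FPKM in KO and 93.0 ± 10.5 in WT (SD, n = 3 each). The log2 difference was 0.43, with a 95% interval of 0.11 to 0.75, and missed the threshold (limma, adjusted p 0.151). Timp1, a soluble inhibitor gene that is induced in many injured tissues, measured 1.87, 0.86 and 2.29 FPKM in WT libraries against 4.22, 2.34 and 5.52 in KO libraries. Its groups were barely apart, since WT replicate 3 and KO replicate 2 were nearly level (limma, log2 difference 0.90, interval 0.25 to 1.54, adjusted p 0.138). These values rest on only an estimated 11 to 69 reads per library. Of the members averaging 1 FPKM or more, Timp1 was also among the 3 with the widest spread within a group. Its highest WT library was 2.66 times the lowest.

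Timp4, an inhibitor gene with high levels in fat and heart, measured 54.27, 60.07 and 65.57 FPKM in WT libraries against 62.16, 44.9 and 49.6 in KO libraries, with overlap (limma, log2 difference −0.21, interval −0.57 to 0.16, adjusted p 0.525). Timp2, which also takes part in activating pro-MMP2 on the cell surface, measured 20.32, 23.98 and 17.54 FPKM in WT libraries against 21.72, 33.45 and 20.87 in KO libraries. Its groups overlapped (limma, log2 difference 0.26, interval −0.20 to 0.73, adjusted p 0.520). The 4 Timp genes together came to 170.7 to 181.4 FPKM in WT and 190.0 to 220.7 in KO. Of that sum Timp3 made up 49.96 to 57.9% in WT and 60.0 to 61.6% in KO. The ratio of Timp3 to Timp4 was 1.93, 1.48 and 1.30 in WT and 2.13, 2.89 and 2.30 in KO, higher in each KO library. This pair was chosen after its values were seen (exact permutation test, two-sided p 0.1, the smallest possible; adjusted over 3 such ratios, 0.1). The summed Timp over the summed Mmp FPKM was 2.08 ± 0.312 in WT and 2.30 ± 0.343 in KO (SD, n = 3), with overlap.

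Of the Timp genes, 3 lie inside synapsin genes on the opposite strand: Timp1 in Syn1, Timp3 in Syn3 and Timp4 in Syn2. Strand handling in the counting is not stated. Syn1 and Syn3 were at 0.02 to 0.27 FPKM in every library, against 0.86 FPKM or more for Timp1 and far more for Timp3. Syn2 was at 3.31 to 4.30 FPKM in WT and 4.69 to 5.6 in KO, low beside Timp4.

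Mmp15, which encodes a matrix metalloproteinase anchored in the cell membrane (Entrez gene 17388, chr8:95352296-95374293, plus strand), fell in KO. It measured 7.88, 8.7 and 10.05 FPKM in WT libraries against 4.55, 4.53 and 3.38 in KO libraries. All KO libraries lay below all WT libraries, and KO held 46.8% of the WT mean (8.88 ± 1.10 against 4.15 ± 0.670 FPKM, SD, n = 3 each). The log2 difference was −0.94 (limma, SE 0.16, adjusted p 0.0324), and the fit rests on an estimated 258 to 757 reads per library. Mmp14, which encodes the main membrane-anchored activator of pro-MMP2, measured 22.66, 28.11 and 26.06 FPKM in WT libraries against 26.29, 32.64 and 25.09 in KO libraries. Its groups overlapped (limma, log2 difference 0.12, interval −0.23 to 0.48, adjusted p 0.724). The ratio of Mmp15 to Mmp14 was 0.348, 0.309 and 0.386 in WT and 0.173, 0.139 and 0.135 in KO, lower in each KO library (exact permutation test, two-sided p 0.1, the smallest possible; adjusted over 3 such ratios, 0.1). As Mmp15 was itself called lower in these libraries, this ratio describes the same fall and does not test it again. The other membrane-type genes, Mmp16, Mmp17, Mmp24 and Mmp25, were below the minimum for testing, at means of 0.00333 to 0.425 FPKM.

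Mmp8, the collagenase known best from neutrophil granules (Entrez gene 17394, chr9:7558429-7568486, plus strand), rose in KO. It measured 2.16, 4.18 and 2.91 FPKM in WT libraries against 7.52, 6.32 and 6.26 in KO libraries. All KO libraries lay above all WT libraries, and the KO mean was 2.17 times the WT mean (3.08 ± 1.02 and 6.70 ± 0.711 FPKM, SD, n = 3 each). The log2 difference was 0.94 (limma, SE 0.20, adjusted p 0.0483), on an estimated 75 to 248 reads per library. Of 8 neutrophil markers, 0 were apart between the groups, and their summed FPKM was 133.6 to 209.9 in WT and 153.0 to 368.9 in KO, led by S100a8 and S100a9. Mpo, Elane and Ly6g had means under 0.5 FPKM, and Ly6g was at 0 in WT replicate 3. Of 8 macrophage markers, 3 were without overlap and higher in KO (C1qa, C1qb and Cd163), where 13.6% of all tested genes were. The summed FPKM of the 8 macrophage markers was 118.8 to 175.6 in WT and 163.1 to 226.1 in KO. The part of neutrophils and macrophages in the rise of Mmp8 was not tested.

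Mmp8 stands in a row of Mmp genes on chromosome 9, where Mmp13, Mmp12, Mmp3 and Mmp10 lie on one side and Mmp27, only 2.91 kb away, on the other. No library exceeded 0.35 FPKM for any of these 5 neighbours, an estimated 8 reads at most. Mmp13, a collagenase of cartilage and bone, was at 0 to 0.15 FPKM, and Mmp3, a stromelysin, at 0.04 to 0.27 FPKM. Mmp10, a stromelysin, and Mmp12, the elastase of macrophages, were at 0.04 FPKM or less, the worth of 1 read. Mmp27 was at 0.03, 0.16 and 0 FPKM in WT and 0.28, 0.16 and 0.35 in KO, too low to test. As shown above, the windows of Mmp3, Mmp10, Mmp12 and Mmp13 hold the AP-1 letters and that of Mmp8 does not.

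Neither gelatinase gene passed. Mmp2, which encodes a gelatinase made mainly by stromal cells, measured 22.23, 27.42 and 22.44 FPKM in WT libraries against 21.81, 37.31 and 26.65 in KO libraries, with overlap (limma, log2 difference 0.21, interval −0.24 to 0.67, adjusted p 0.604). Mmp9, a gelatinase gene of leukocytes, measured 1.04, 1.5 and 2.54 FPKM in WT libraries against 1.9, 3.06 and 1.37 in KO libraries. Its spread within each group exceeded the difference between the groups: the highest WT library was 2.44 times the lowest and the highest KO library 2.23 times (limma, log2 difference 0.21, adjusted p 0.702). Mmp2 and Mmp14 together made up 56.9 to 66.7% of the summed Mmp FPKM in every library.

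Of the other Mmp genes, Mmp11, whose enzyme is activated inside the cell by furin, measured 0.74, 1.01 and 1.05 FPKM in WT libraries against 1.22, 1.37 and 2.16 in KO libraries. All KO libraries lay above all WT libraries, and the difference missed the threshold (limma, log2 difference 0.40, interval 0.01 to 0.80, adjusted p 0.254). Mmp11 shares 3367 bases of its span with Chchd10 on the opposite strand, a mitochondrial protein gene at 640.2 to 1337 FPKM, and without strand their reads cannot be told apart. Mmp28, a secreted enzyme gene active in skin and macrophages, measured 9.84, 10.41 and 6.98 FPKM in WT libraries against 7.01, 7.28 and 6.83 in KO libraries, with overlap (limma, log2 difference −0.31, interval −0.69 to 0.07, adjusted p 0.358). Mmp19 had means of 6.69 ± 2.25 and 6.75 ± 1.51 FPKM and Mmp23 of 4.17 ± 1.26 and 4.14 ± 1.11 FPKM in WT and KO (SD, n = 3 each), closer than their spread. The intervals of their log2 differences still allow changes of −0.49 to 0.56 and −0.52 to 0.52. Mmp19 shares 789 bases with Tmem198b and Mmp28 shares 466 with 1700020L24Rik, genes at 5.34 to 8.39 FPKM on average.

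Adamts1, an early-induced secreted protease gene whose enzyme cuts versican and aggrecan (Entrez gene 11504, chr16:85793827-85803113, minus strand), fell in KO. It measured 26.01, 25.06 and 25.66 FPKM in WT libraries against 14.97, 16.98 and 14.45 in KO libraries. The WT libraries were within 1 FPKM of each other and all KO libraries were lower. KO held 60.5% of the WT mean (25.6 ± 0.480 against 15.5 ± 1.34 FPKM, SD, n = 3 each), a log2 difference of −0.69 (limma, SE 0.13, adjusted p 0.0406), on an estimated 1004 to 1839 reads per library. Adamts1 made up 27.2 to 32.2% of the summed Adamts FPKM in WT and 19.0 to 21.3% in KO.

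Adamts9, a versican-cutting relative at a like level, measured 25.12, 26.72 and 22.25 FPKM in WT libraries against 23.98, 23.46 and 19.55 in KO libraries, with overlap (limma, log2 difference −0.14, interval −0.47 to 0.19, adjusted p 0.645). The ratio of Adamts1 to Adamts9 was 1.04, 0.938 and 1.15 in WT and 0.624, 0.724 and 0.739 in KO, lower in each KO library (exact permutation test, two-sided p 0.1, the smallest possible; adjusted over 3 such ratios, 0.1). Adamts1 was already called lower in these same libraries, so the ratio is a description and no separate test of its fall. Adamts5, an aggrecanase gene that lies 55.0 kb from Adamts1 on chromosome 16, measured 6.68, 7.16 and 4.52 FPKM in WT libraries against 5.48, 8.92 and 5.52 in KO libraries. These values overlapped (limma, log2 difference 0.09, interval −0.41 to 0.60, adjusted p 0.864).

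**Figure D3:**
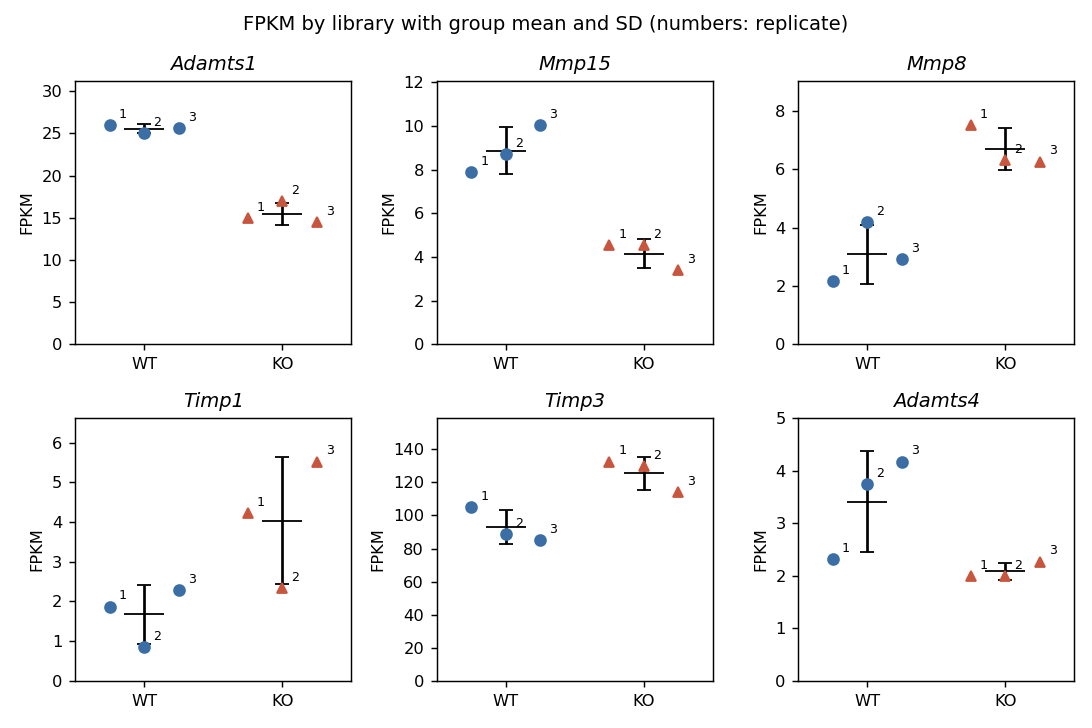
FPKM (vertical, from 0) of Adamts1, Mmp15, Mmp8, Timp1, Timp3 and Adamts4 in the 3 WT (circles) and 3 KO (triangles) libraries, numbered by replicate, with the group mean and SD. No gene shows overlap, and Adamts4 and Timp1 come closest to it.

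Adamts4, another aggrecanase gene, measured 2.32, 3.74 and 4.17 FPKM in WT libraries against 1.99, 1.99 and 2.27 in KO libraries. The KO libraries lay below WT, with WT replicate 1 just above the highest of them (limma, log2 difference −0.49, interval −0.92 to −0.06, adjusted p 0.203). Adamts15 was at 2.2 ± 0.590 and 2.05 ± 0.151 FPKM in WT and KO (SD, n = 3 each), with overlap, and Adamts8 and Adamts20 were too low to test, at means of 0.202 and 0.307 FPKM.

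Among the procollagen-cutting enzymes, Adamts2, the main gene for removal of the amino-terminal propeptide of fibrillar collagens, measured 3.96, 5.13 and 4.03 FPKM in WT libraries against 3.57, 5.53 and 4.6 in KO libraries, with overlap (limma, log2 difference 0.04, interval −0.36 to 0.45, adjusted p 0.928). Adamts14 measured 0.83, 1.22 and 0.85 FPKM in WT libraries against 1.63, 1.46 and 1.44 in KO libraries, apart but short of the threshold (limma, log2 difference 0.36, interval 0.02 to 0.69, adjusted p 0.235). Adamts3, whose enzyme also activates the lymphatic growth factor VEGFC, was at 0.13 to 0.18 FPKM in WT and 0.21 to 0.26 in KO, on at most 14 estimated reads, and was not tested.

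Of the other Adamts genes, 4 of 8 were tested and 0 passed. Adamts13, whose enzyme cuts von Willebrand factor, measured 5.66, 8.78 and 8.23 FPKM in WT libraries against 5.31, 9.95 and 13.93 in KO libraries. KO replicate 3 was 2.62 times KO replicate 1, and the groups overlapped (limma, log2 difference 0.26, interval −0.42 to 0.94, adjusted p 0.683). Adamts12, which cuts cartilage oligomeric matrix protein, measured 7.04, 8.21 and 4.35 FPKM in WT libraries against 7.8, 7.29 and 9.11 in KO libraries, with overlap (limma, log2 difference 0.30, adjusted p 0.478). Adamts7, its closest relative, measured 1.29, 1.51 and 1.67 FPKM in WT libraries against 1.18, 1.11 and 1.01 in KO libraries, apart but not past the threshold (limma, log2 difference −0.24, interval −0.56 to 0.08, adjusted p 0.386). Adamts7 shares 6045 bases with Tbc1d2b on the opposite strand, a gene at 4.52 to 6.08 FPKM, so that their reads cannot be told apart without strand. Adamts19 had means of 0.547 and 0.857 FPKM with overlap.

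The ADAMTS-like genes were low and none of the 4 tested passed. Adamtsl4, which is known for its part in the fibres that hold the lens, measured 2.1, 3.56 and 2.56 FPKM in WT libraries against 2.2, 3.24 and 2.23 in KO libraries. Adamtsl3 measured 1.95, 2.19 and 1.8 FPKM in WT libraries against 2.33, 2.47 and 1.94 in KO libraries. Both overlapped, with log2 differences of −0.07 (limma, interval −0.50 to 0.37) and 0.12 (interval −0.21 to 0.45). The summed FPKM of the 5 Adamtsl genes averaged 6.73 in each group (SD 1.61 in WT and 1.17 in KO, n = 3 each).

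Other genes of matrix proteolysis came from lists drawn up for this pathway. In the plasminogen system 0 of 9 tested genes passed (median log2 difference 0.06, against 0.01 over all tested genes). Plaur, the urokinase receptor gene, measured 2.76, 3.71 and 3.06 FPKM in WT libraries against 5.36, 5.51 and 4.54 in KO libraries, apart but short of the threshold (limma, log2 difference 0.56, adjusted p 0.0988), and its ligand gene Plau overlapped (0.20, adjusted p 0.548). Among activators, cofactors and clearance receptors 0 of 11 passed (median 0.14). Cd44, a hyaluronan receptor that also docks matrix metalloproteinases, measured 9.23, 13.64 and 9.3 FPKM in WT libraries against 23.06, 20.54 and 14.06 in KO libraries, again apart (limma, log2 difference 0.78, adjusted p 0.102). Lrp1, an endocytic receptor that clears proteases and inhibitors, lay at 7.28 ± 0.930 and 10.3 ± 2.08 FPKM (SD, n = 3; limma, adjusted p 0.225). Among other matrix proteases 0 of 21 passed (median 0.10), with Ctss, a cathepsin gene of macrophages, at 8.877 ± 1.502 in WT and 13.8 ± 1.79 FPKM in KO (SD, n = 3; limma, log2 difference 0.59, adjusted p 0.110) and Dpp4 at 2.93 ± 1.37 and 5.63 ± 2.45 FPKM (limma, adjusted p 0.224). Of the relatives of the Adamtsl genes 0 of 4 passed (median 0.15), Papln (limma, log2 difference −0.45, adjusted p 0.351) and Thsd4 (0.30, adjusted p 0.402) having the smallest p-values.

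Among substrates and partners 1 gene passed. Of the hyaluronan-binding proteoglycans, link proteins and hyaluronan synthases, 3 of 11 reached the minimum for testing and 0 passed. Vcan, the versican gene, measured 14.65, 17.63 and 8.28 FPKM in WT libraries against 14.38, 18.53 and 18.81 in KO libraries, with overlap (limma, log2 difference 0.38, adjusted p 0.448), and Acan, the aggrecan gene, was at 0.22 to 0.36 FPKM. Has1 and Has2, hyaluronan synthase genes, had adjusted p of 0.233 and 0.423 (limma). Of 21 other substrates 0 passed (median 0.17). Nid2, a basement membrane linker gene, measured 35.52, 46.4 and 42.54 FPKM in WT libraries against 25.4, 28.8 and 20.03 in KO libraries, apart but not past the threshold (limma, log2 difference −0.73, adjusted p 0.0674). Thbs1, an extracellular glycoprotein gene, measured 16.69, 20.56 and 16.43 FPKM in WT libraries against 33.2, 28.8 and 23.43 in KO libraries, also apart (limma, log2 difference 0.64, adjusted p 0.0913). Of 14 microfibril genes 1 passed (median −0.16), where 2.21% of all tested genes did. Efemp1, a fibulin gene whose protein binds TIMP3, rose from 10.37, 15.33 and 7.76 FPKM in WT to 29.24, 48.78 and 25.77 in KO (limma, log2 difference 1.54, SE 0.28, adjusted p 0.0369). Of the 14, 1 was apart and higher in KO and 3 apart and lower, against 13.6% and 11.4% of all tested genes. Mfap4, among the 3, missed the threshold (limma, log2 difference −1.17, adjusted p 0.0585). With any 1 library left out, Efemp1 missed the threshold (log2 difference 1.27 to 1.78, limma adjusted p 0.0512 to 0.125).

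Marker genes of other cells are given beside the 2 genes that fell. Over all tested genes, 11.4% were without overlap and lower in KO, and 13.6% without overlap and higher. Of 8 markers of pericytes and smooth muscle, 4 were without overlap and lower in KO (Rgs5, Cspg4, Notch3 and Acta2), and their summed FPKM was 130.8 to 168.5 in WT and 111.5 to 123.9 in KO. Cspg4, a pericyte proteoglycan gene, passed the test among them (limma, log2 difference −1.19, adjusted p 0.0435). Of 8 brown adipocyte markers 3 were lower without overlap (Ucp1, Plin1 and Elovl3, the last 2 past the threshold), with sums of 6995 to 9894 FPKM in WT and 4911 to 6784 in KO. The log2 difference was above 0 in 4 of these 8 (Cidea, Adipoq, Pparg and Ppargc1a, all with overlap) and below 0 in 4. Ucp1 was the highest of the 8 in every library and weighs most in the sums. Of 8 endothelial markers 0 were apart, with sums of 512.6 to 639.1 FPKM in WT and 512.6 to 602.6 in KO. Of 6 fibroblast markers 1 was apart, higher in KO, with sums of 175.5 to 256.4 and 232.5 to 339.3 FPKM. The part of these cells in the falls of Mmp15 and Adamts1 was not tested. Mast cell markers overlapped (0 of 6 apart, 210.2 to 355.3 and 214.5 to 310.9 FPKM), as did those of Schwann cells (0 of 6). Of 7 cartilage and bone markers listed, 6 had means under 0.5 FPKM. The 1 that was apart, lower in KO, was among these 6 (Col10a1, mean 0.305 FPKM) and was not tested. Of 6 epidermis markers 4 had means under 0.5 FPKM, 3 were apart and higher in KO and 1 lower. Of the 3, Krt5 and Krt1 were too low to test, at 0 FPKM in every WT library and 0.03 to 0.27 in KO. Sbsn rose (limma, log2 difference 0.89, adjusted p 0.0427). With 1 library left out in turn, Elovl3 passed in 4 of 6 fits, Cspg4 and Plin1 in 2 each and Sbsn in 1.

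The 3 called differences kept their sign whichever library was left out, while the calls did not hold. With 1 library left out in turn, the log2 difference was −0.76 to −0.65 for Adamts1, −1.02 to −0.83 for Mmp15 and 0.77 to 1.13 for Mmp8. The adjusted p (limma) was then 0.0483 to 0.163, 0.0402 to 0.134 and 0.0638 to 0.142. Adamts1 and Mmp15 passed only without WT replicate 1, and Mmp8 in none of the 6 fits. Without WT replicate 2, WT replicate 3 or any KO library, 0 of the 28 genes passed, in fits that called 31 to 121 genes in all, against 295 with every library. Without both WT replicate 3 and KO replicate 1, which stood apart in red cell and muscle RNA, the differences were −0.67 for Adamts1, −0.92 for Mmp15 and 0.85 for Mmp8 (limma, adjusted p 0.254, 0.182 and 0.282).

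**Figure D4:**
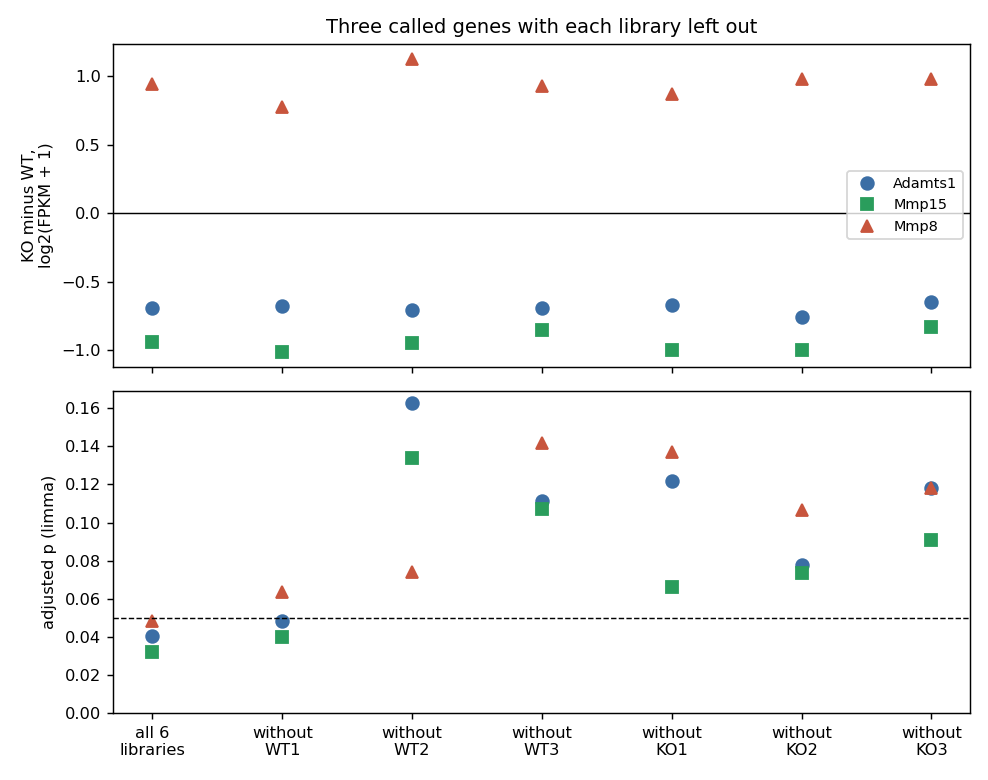
Difference between KO and WT (upper panel, log2(FPKM + 1)) and adjusted p from limma (lower panel, dashed line at 0.05) for Adamts1, Mmp15 and Mmp8 with all 6 libraries and with each library left out. The differences keep their sign and nearly their size, and most adjusted p lie above the line once a library is left out.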

How the data were processed

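The deposited table holds FPKM values per gene and library, rounded by the authors to 2 decimals, per the file headers. The submitters' processing notes name mm10, HISAT2 2.0.4, Bowtie2 2.2.5 and DESeq2, with no role or order; the quantifier and strand handling are not given in the sources used here. Groups and replicate numbers came from sample titles. Each of the 6 value columns entered.

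As FPKM are no counts, log2(FPKM + 1) was fitted with limma 3.58.1 in R 4.3.3 (lmFit, eBayes with trend, no covariates) over the 13331 genes that averaged 0.5 FPKM or more, and p-values were adjusted over all of them (Benjamini-Hochberg, threshold 0.05). Differences on this scale understate the change of low genes. Intervals are 95%. Exact tests permute the 6 libraries. Depth was estimated from the steps between low FPKM values of single-transcript genes: 76.5% to 79.9% of 546 to 588 values per library lay within 0.2 of a whole read, against 39.5% to 44.5% with lengths shuffled. Estimated reads per gene use GENCODE vM21 transcript lengths and are approximate. Positions and promoter windows are RefSeq's on GRCm38.p6, the assembly of mm10, and overlaps of gene spans are from GENCODE vM21. Not every overlap is reported here.

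Genes named are Fstl1, members past the threshold, the 12 largest differences without overlap at 1 FPKM or more (9 met this) and the 2 most abundant of each role. Also named are the 3 members averaging 1 FPKM or more with the widest spread within a group. From each other list, those past the threshold or the 2 with the smallest p are named. Other genes named are extra. Members, lists and rules were chosen with earlier results of these data known. The alternatives were a pseudocount of 0.1, no filter, a filter at 5 FPKM, quantile, median-of-ratios and common-sum scaling, eBayes without trend or robust, a replicate block and leaving out each library. Leaving out 2 libraries together was chosen after seeing the data. Figures were drawn with matplotlib 3.10.9.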

Additional observations from a re-analysis of the deposited data

How the results depend on the processing

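Of the 28 tested members, 18 kept their direction in all alternatives run, Adamts1, Mmp15 and Mmp8 among them. Of these 3, all passed at a pseudocount of 0.1, with quantile and median-of-ratios scaling and with eBayes without the trend or robust. Mmp15 and Adamts1 passed at a filter of 5 FPKM, which leaves Mmp8 untested. The number of members called was 0 without a filter on low values, 1 with a common FPKM sum (Mmp15), 0 to 2 with 1 library left out and 0 without WT replicate 3 and KO replicate 1. Over all genes, 295 were called with every library, 35 without a filter, 191 with a common sum and 13 without both libraries. With 1 library left out the number was 31 to 370, above 295 only without WT replicate 1. The cause was not tested. Fstl1 missed the threshold without a filter (log2 difference −2.79, limma adjusted p 0.0606) and without both libraries (−2.88, 0.101), and ran from −3.01 to −2.39 with 1 library left out.

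WT and KO share replicate numbers, which the labels do not state to be pairs. The deviations of same-numbered libraries had correlations of 0.0681, 0.0433 and 0.0433 over the tested genes. Such low values cannot show whether the numbers are pairs, and the main fit treated the libraries as unpaired. With a replicate block 167 genes were called in all and 1 member, Timp1 (limma, log2 difference 0.90, adjusted p 0.0449), while the calls of Mmp15, Adamts1 and Mmp8 were lost at the same differences (adjusted p 0.0580, 0.0733 and 0.0733).

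The sign turned for 10 members that were never called. With 1 library left out Adamtsl4 ran from −0.200 to 0.0858, Mmp9 from −0.000946 to 0.426, Adamts13 from −0.022 to 0.599, Mmp19 from −0.11 to 0.26, Adamts2 from −0.0801 to 0.177, Adamts15 from −0.136 to 0.0917, Adamts5 from −0.111 to 0.201, Adamtsl2 from −0.139 to 0.0714, Adamtsl5 from −0.285 to 0.0781 and Mmp23 from −0.206 to 0.156. With quantile scaling Mmp19 was at −0.0188, Adamts2 at −0.0141 and Mmp23 at −0.0617. With median-of-ratios scaling Mmp23 was at −0.0179, and with a common sum Adamtsl2 was at 0.0107. Without WT replicate 3 and KO replicate 1, Mmp19 was at −0.11 and Adamtsl2 at 0.0956. In that fit Mmp9 (0.458), Adamts13 (0.664) and Mmp23 (0.205) kept the sign they had with all libraries. The cause was not tested. Depth limits genes under about 0.5 FPKM, whose values rest on few reads. It also limits some genes above that level. Timp1 rests on an estimated 11 to 69 reads per library and Mmp11 on 22 to 65.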
